A study of Homo sapiens with 21 samples.

Results

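The protein kinase C (PKC) family was followed in SK-N-BE(2) cells, an established human neuroblastoma line, after silencing of ARID1A and ARID1B. Its members were taken as the rows of the deposited table with 8 gene symbols, PRKCA, PRKCB, PRKCD, PRKCE, PRKCH, PRKCQ, PRKCI and PRKCZ, out of 60728 genes. The family was selected on the values of PRKCH in these same libraries, which were low where ARID1B was low and not where ARID1A alone was low. The comparisons of PRKCH with Control and between labels are therefore a description and carry no test.

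ARID1A and ARID1B are alternative subunits of the BAF (SWI/SNF) complex, which moves nucleosomes and so opens or closes chromatin. The study silenced them with short hairpin RNAs (shRNAs), which lower the transcript they match, and sequenced polyadenylated RNA. The 7 conditions, each with 3 libraries described as biological triplicates, were Control (a non-silencing vector), 1 shRNA labelled as against ARID1A (shARID1A.2 or shARID1A.4), 1 labelled as against ARID1B (shARID1B.2 or shARID1B.3), or a combination of both (shARID1A/B.2.3 or shARID1A/B.4.2). Values for all 6 silenced conditions are given in this order wherever no label is printed beside them. All cells, those of Control included, were transduced with lentivirus made in HEK293T cells, and RNA was taken 72 h later. The model is 1 cell line, and every condition is a bulk RNA sample, in which fewer cells expressing a gene and less RNA per cell cannot be told apart. The p-values set a difference against the spread among libraries of the same condition, estimated jointly over the 7 conditions.

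PKC enzymes are serine/threonine kinases that carry signals from receptors at the cell surface. Classical members (PRKCA, PRKCB) are activated by calcium and diacylglycerol, calcium-independent members (PRKCD, PRKCE, PRKCH, PRKCQ) by diacylglycerol alone, and atypical members (PRKCI, PRKCZ) by neither, acting instead through protein partners such as the PAR polarity complex. Phospholipase C makes the diacylglycerol and diacylglycerol kinases remove it. In neuroblastoma cells PKC activators such as phorbol esters are known for their effects on neurite outgrowth and differentiation.

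The silenced genes did not follow the labels in every condition. The mean ARID1A value was 6312 ± 191 (SD, n = 3) in Control, and 2146, 2243, 1920, 2479, 5659 and 5440 in the silenced conditions. ARID1B stood at 5796 ± 7.47 in Control and at 2241, 3100, 5004, 6091, 2599 and 1907. Values are reads divided by a size factor per library. Thus both transcripts were low under the label shARID1A, ARID1A alone was low by more than 1 log2 unit under the label shARID1B, and under the label shARID1A/B ARID1B was low while ARID1A differed from Control by -0.16 and -0.21 log2 units (adjusted p = 3.4e-05 and 4e-07 by limma). The labels are used below as written. A value given under a label is that of the libraries so labelled. The libraries held 27954334 to 41077638 reads. Markers of adrenergic neuroblastoma were detected in every condition and moved in different directions. HAND2, a transcription factor gene, differed from Control by -1.70, -0.39, -0.33, -0.24, -0.17 and -1.49 log2 units, and GATA3, another, by 0.42, 0.46, 0.40, 0.61, 0.12 and 0.26. DBH, which encodes an enzyme of noradrenaline synthesis, differed by -2.20, 0.72, -1.87, -1.71, 1.10 and -1.73. TH, another such enzyme, rose by 1.61 under shARID1A/B.2.3, and MYCN by 1.77 under shARID1A.4. Neither rose in every condition. The mean of TH was 678 in Control and 698, 1663, 584, 516, 2071 and 671 in the silenced conditions. That of MYCN was 122676 in Control and 93294, 418088, 79339, 157306, 218568 and 85143.

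**Figure D1:**
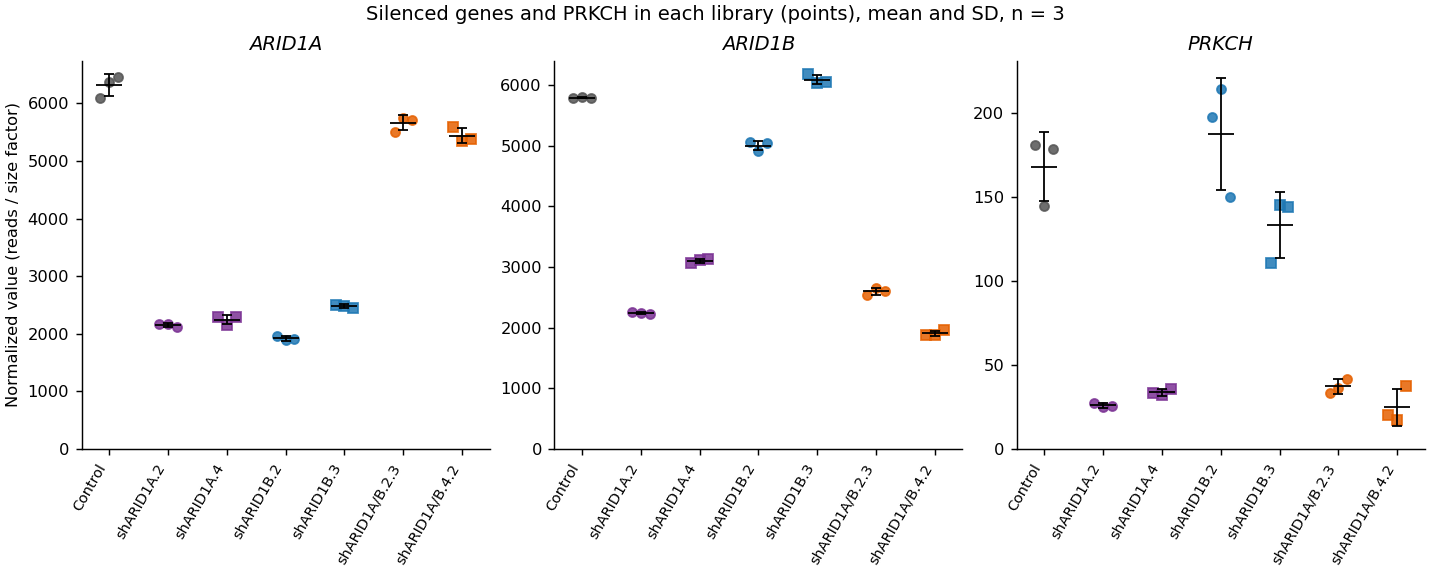
Normalized value (reads divided by size factor, linear axes from 0) of ARID1A, ARID1B and PRKCH in each of 21 libraries, with colours for the labels, the mean as a black line and the SD as its error bar (n = 3). PRKCH sat between 16.99 and 41.84 in the 12 libraries labelled shARID1A or shARID1A/B and between 110.5 and 214.17 in the 9 others.

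The sequence before the RefSeq start is shown for PRKCH, whose values selected the family, and for PRKCE, which differed between the 2 conditions of each label. The 250 bases before the RefSeq start of each gene (GRCh38.p14, + strand) are chr14:61321329-61321578 for PRKCH and chr2:45651425-45651674 for PRKCE. Capitals mark the GC box GGGCGG on either strand, a motif recognized by SP family factors.
PRKCH: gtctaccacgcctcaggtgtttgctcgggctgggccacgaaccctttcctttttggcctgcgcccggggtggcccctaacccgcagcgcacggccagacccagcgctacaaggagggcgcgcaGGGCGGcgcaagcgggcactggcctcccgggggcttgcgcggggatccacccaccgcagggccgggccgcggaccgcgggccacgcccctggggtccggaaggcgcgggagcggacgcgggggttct
PRKCE: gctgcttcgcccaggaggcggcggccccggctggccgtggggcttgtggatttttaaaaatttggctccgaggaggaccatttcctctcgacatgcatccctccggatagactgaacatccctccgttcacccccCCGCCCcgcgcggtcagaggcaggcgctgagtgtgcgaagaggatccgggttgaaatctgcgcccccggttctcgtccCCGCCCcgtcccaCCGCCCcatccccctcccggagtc
The PRKCH window had a GC content of 75.2% with 30 CpG sites and 1 GC box, and that of PRKCE 66.4% with 23 CpG sites and 3 GC boxes, against a median GC content of 58% and a median of 11 CpG sites over all 35116 windows of this length. The GC box, searched on both strands, was present in 42.6% of all windows. The AP-1 motif TGANTCA, searched in the same way because AP-1 is a classical endpoint of PKC signalling, was in 6.57% of all windows and in none of the 13 windows of the 8 members. The TATA box TATAAA was in 10.7% of all windows and, among the members, in that of PRKCQ. A match describes the letters only, and no match says only that these letters are not in the window. Both windows lie inside the gene as annotated by GENCODE release 29, which starts further upstream (PRKCH chr14:61187559-61550976, PRKCE chr2:45651345-46187990). The antisense gene AL359220.1, listed at 0 in every library, overlaps the PRKCH window.

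By level per kilobase of exons, PRKCA, PRKCI and PRKCE made up most of the family. In Control PRKCA gave 48.6% ± 0.700 (SD, n = 3) of the summed level of the 8 members, PRKCI 30.2% ± 0.250 and PRKCE 15.2% ± 0.434. PRKCD gave 2.20%, PRKCZ 2.05% and PRKCH 1.49%, and PRKCB and PRKCQ gave 0.185% and 0.111%. PRKCH, whose values selected the family, was thus among its minor transcripts. The summed level per kilobase was 1281 ± 16.2 in Control and lower in each silenced condition, from 716 ± 10.1 under shARID1A.4 to 1143 ± 4.29 under shARID1A/B.2.3. PRKCZ gave 8.83% ± 0.208 of the sum under shARID1A.4 and 7.21% ± 0.674 under shARID1A/B.2.3. Lengths are those of all exons of a gene joined, and the length used moves these levels (with the longest transcript PRKCZ gave 4.88% in Control). With that length the lowest sum was that of shARID1B.3, 1045 against 1096 for shARID1A.4, and Control stayed highest at 1763.

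**Figure D2:**
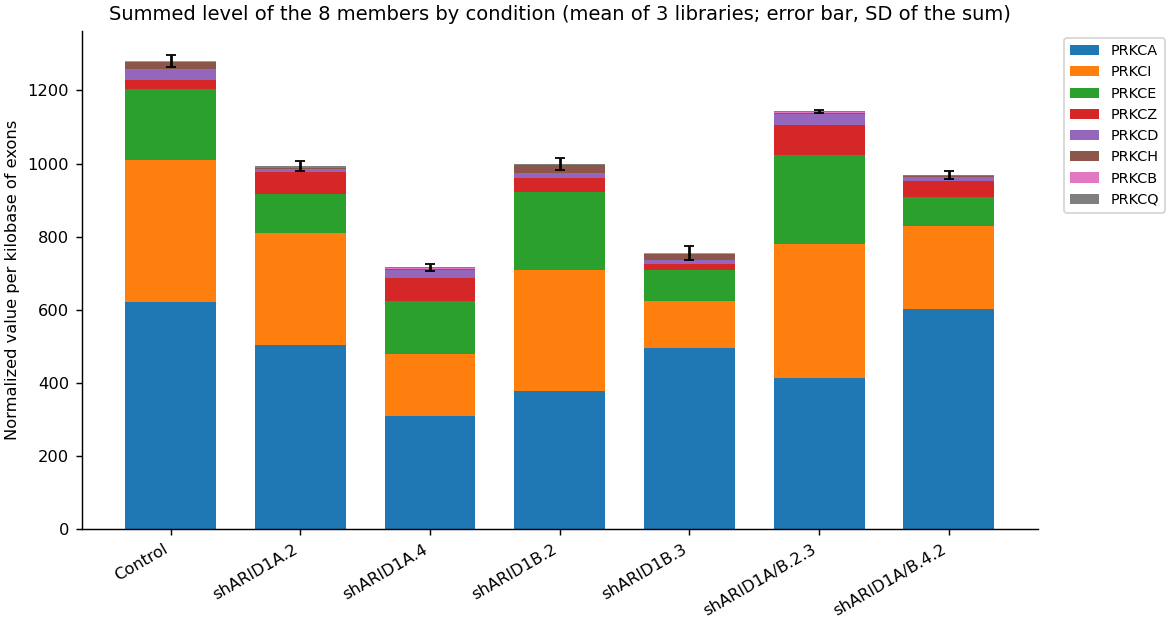
Summed level of the 8 members per kilobase of exons (linear axis from 0) in each condition, stacked by gene, with the mean of 3 libraries and the SD of the sum as error bar. Control is highest at 1281 and shARID1A.4 lowest at 716 with this length, and PRKCA, PRKCI and PRKCE fill most of every bar.

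PRKCH encodes PKC eta, an isoform known from epithelia and lymphocytes. It had 180.88, 144.38 and 178.71 in the Control libraries. Under the label shARID1B it had 197.82, 214.17 and 150.28 (shARID1B.2) and 110.5, 145.37 and 144.2 (shARID1B.3). Both of these conditions, in which ARID1B differed from Control by -0.21 and 0.07 log2 units, overlapped Control. The values were 27.42, 24.72 and 25.61 under shARID1A.2 and 33.02, 32.11 and 35.93 under shARID1A.4. Under the label shARID1A/B they were 33.41, 36.47 and 41.84 (shARID1A/B.2.3) and 20.04, 16.99 and 37.46 (shARID1A/B.4.2). All 12 of these libraries lay below every library of Control and of the label shARID1B. The mean was 6.48-fold and 4.99-fold lower than in Control under the label shARID1A, and 4.51-fold and 6.77-fold lower under the label shARID1A/B.

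On the log2 scale (value + 1), the differences of PRKCH from Control were -2.64 and -2.28 (SE 0.21 each) under shARID1A.2 and shARID1A.4, and -2.14 and -2.78 under shARID1A/B.2.3 and shARID1A/B.4.2. They were 0.15 and -0.33 under shARID1B.2 and shARID1B.3. In the order of condition means, shARID1B.2, Control and shARID1B.3 came first, each overlapping the next. They were followed without overlap by shARID1A/B.2.3 and shARID1A.4, which overlapped each other, and then by shARID1A.2 and shARID1A/B.4.2, which also overlapped each other. Libraries with both transcripts low (labelled shARID1A) and those with ARID1B low (labelled shARID1A/B) differed by 0.00 on average, with an SE of 0.15. Within the label shARID1A/B, the condition with the lower ARID1B (shARID1A/B.4.2) held the 2 lowest PRKCH libraries of all 21. Its replicate 3 at 37.46 lay within the range of shARID1A/B.2.3. Within the label shARID1A, the condition with the lower ARID1B (shARID1A.2) also had the lower mean PRKCH, 25.9 against 33.7. The label shARID1B went the other way, with the lower ARID1B but the higher mean PRKCH under shARID1B.2, 187 against 133. A relation of the 2 levels within labels was not tested.

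The selection did not compare the 2 conditions within a label, but it used these same libraries. PRKCH had to be low, or not low, in both conditions of a label alike. The tests of PRKCH given here are therefore not independent of the selection. Under shARID1A/B.2.3, PRKCH was 0.64 log2 units higher than under shARID1A/B.4.2 (95% interval 0.22 to 1.07, adjusted p = 0.0074 by limma), a call that was lost without shARID1A/B.4.2 replicate 2 (0.42, adjusted p = 0.076). It was 0.48 higher under shARID1B.2 than under shARID1B.3 (0.06 to 0.91, adjusted p = 0.043 by limma), a call that was lost without replicate 1 or 2 of shARID1B.2 or replicate 1 of shARID1B.3 (0.44, 0.38 and 0.35). The shARID1A.2 minus shARID1A.4 difference was -0.37 (-0.79 to 0.06, adjusted p = 0.11 by limma).

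Markers of other cells that express PKC genes were read in the same libraries. The summed value of 7 leukocyte markers was 419 to 452 in Control, 314 to 334 under shARID1B.3, 195 to 214 under shARID1A/B.4.2 and 61.2 to 131 in the 4 other conditions, and PTPRC gave most of it (410.62 on average in Control). The T cell kinase gene LCK was at 0 in all 21 libraries, CD3E was at most 8.5, and in each condition 2 to 4 of these 7 genes were at 0 in all 3 libraries. The libraries labelled shARID1B.2 had a leukocyte sum of 109 to 122 and PRKCH overlapping Control. The 4 endothelial markers summed to 0.97 to 85.7. The summed mesenchymal neuroblastoma markers were 63190 to 65665 in Control, and VIM gave most of this (54216 on average). The sum was 72478 to 74489 under shARID1A.2 and 38783 to 39127 under shARID1A.4. Under shARID1A/B.2.3 and shARID1A/B.4.2 it was 37759 to 38099 and 54234 to 61585. The sum, most of it VIM, thus did not move in 1 direction in the 4 conditions with low PRKCH (shARID1A.2, shARID1A.4, shARID1A/B.2.3 and shARID1A/B.4.2). Under shARID1B.2 and shARID1B.3 it was 63839 to 67263.5 and 53184 to 61309. The median change of the 5 of these 6 genes that were tested was -1.12, -0.96, -0.78 and -1.22 in those 4 conditions. It was -0.14 and -0.17 under shARID1B.2 and shARID1B.3. The means of FN1, SNAI2, TWIST1 and YAP1 were each below Control in all 4 conditions with low PRKCH. Under shARID1B.2 and shARID1B.3 those of FN1, TWIST1 and YAP1 were also below Control. SNAI2 was not, with 705 and 630 against 628 in Control. The mean of VIM was 68738 under shARID1A.2, above Control. It was 34269, 31533 and 52484 under shARID1A.4, shARID1A/B.2.3 and shARID1A/B.4.2. Mitochondrial genes took 6.35% to 6.63% of reads in Control and 6.66% or more in every silenced library, with 7.50% to 8.20% under shARID1A.2 and 7.59% to 7.95% under shARID1A/B.4.2. The part of these in the values of PRKCH was not tested.

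Genes were then ranked by how closely their 6 differences from Control resembled those of PRKCH, among 13674 genes with a mean value of at least 50. The closest was MXRA8, a cell adhesion protein, with a root mean square difference of 0.46 log2 units and r = 0.98 over the 7 condition means. Its mean was 162 in Control, 34.0 and 50.02 where the label was shARID1A, 137 and 150 where the label was shARID1B, and 53.8 and 30.6 where it was shARID1A/B. The next were DDIAS, PIGA, AEBP1, AXL, VCAN, LMNB1, S1PR3, ZNF367 and AC106895.2, with root mean square differences of 0.53 to 0.62. AXL, a receptor tyrosine kinase, differed from Control by -2.45, -1.54, -0.56, -0.13, -1.24 and -3.16, and VCAN, an extracellular matrix proteoglycan, by -2.46, -2.86, -0.90, -1.07, -1.86 and -2.90. These genes were picked for their likeness, so the values are a description over conditions that share 1 Control.

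The genes next to PRKCH on chromosome 14 were read in the same way. Of 15 annotated genes starting within 500000 bases of its GENCODE start (chr14:61187559), 6 passed the filter on low values and the others carry no test. The RefSeq start used for the sequence above lies further downstream, and genes were not searched around it. SIX4, a homeobox transcription factor, differed from Control by -0.20, -0.94, -0.07, -0.57, -0.77 and 0.05, and MNAT1, a subunit of the CDK-activating kinase, by -0.67, 0.08, -0.29, 0.24, -0.26 and -0.52. SLC38A6 and TRMT5 ranged from -0.13 to 0.65. The lincRNA AL355916.1 differed by -0.54, -0.93, 0.51, -0.03, -0.70 and -0.37, lower in the 4 conditions with low PRKCH, at values of at most 11.38 and with adjusted p-values of 0.096 or more (limma). TMEM30B had values of at most 14.48 and was not called in any comparison. At this depth a difference of these 2 genes could not be resolved.

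The 6 other members with enough reads were PRKCA, PRKCB, PRKCD, PRKCE, PRKCI and PRKCZ. The counts below are over these 6. A member was called at an adjusted p-value under 0.05 (limma, Benjamini-Hochberg over 18584 genes), and a modulated gene also differed by over 1 log2 unit. Under the label shARID1A.2, 1 member rose and 5 fell, with 37.9% of all genes higher and 38.2% lower, and 3 were modulated (24.8% of all genes). Under shARID1A.4, 1 rose and 4 fell (37% and 36.6% of all genes), with 3 modulated (21.4%). The numbers under shARID1B.2 were 2 and 3 (31.6% and 34%), with 1 modulated (12%), and under shARID1B.3 they were 0 and 5 (31.9% and 32%), with 3 modulated (11.8%). No member rose under shARID1B.3 at an unadjusted p under 0.05 either, or by edgeR or DESeq2 (0 in each).

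Under shARID1A/B.2.3, 2 members rose and 1 fell (35.2% and 34% of all genes), with 1 modulated (16.1%). Under shARID1A/B.4.2, 1 rose and 4 fell (35.1% and 36.1%), with 3 modulated (18.4%). The median change of the 6 members was -0.60, -0.45, -0.41, -0.87, -0.04 and -1.03 in the 6 conditions, against 0.01 to 0.02 for all genes tested. These comparisons share the 3 Control libraries and most genes tested were called in each of them, so nothing is read from the number of members called. Scaling to total reads moved the median gene by up to 0.20 log2 units and the share of called genes that were higher from 49.8% to 61.2% under shARID1A.2, from 48.2% to 63.0% under shARID1B.2 and from 49.3% to 64.8% under shARID1A/B.4.2.

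**Figure D3:**
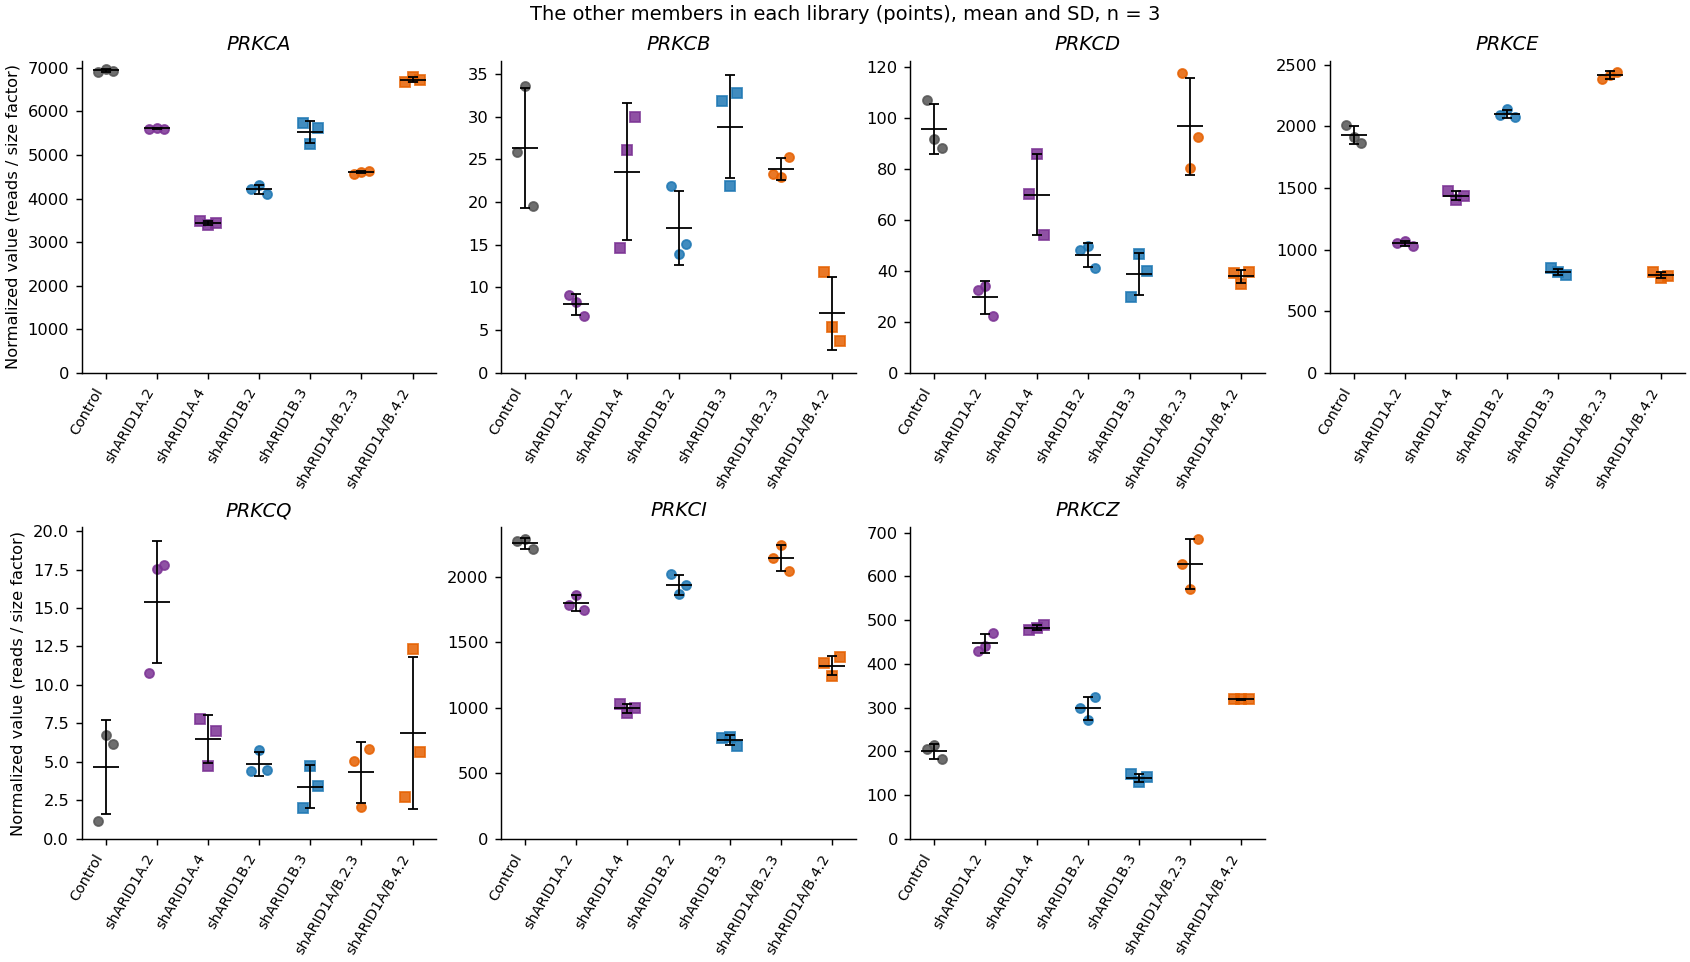
Normalized value (reads divided by size factor, linear axes from 0) of PRKCA, PRKCB, PRKCD, PRKCE, PRKCQ, PRKCI and PRKCZ in each of 21 libraries, with the mean as a black line and the SD as its error bar (n = 3). PRKCZ is above Control in 5 of 6 silenced conditions, and PRKCE separates the 2 conditions of each label.

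Of the classical members, PRKCA (PKC alpha, chr17:66302636-66810743 in GRCh38) was below every Control library in all 6 silenced conditions. Its values were 6903.96, 6976.34 and 6937.76 in Control, and 3479.54, 3402.19 and 3443.98 under shARID1A.4, a 2.02-fold lower mean. The log2 change there was -1.01 ± 0.03 (SE; adjusted p = 3.2e-21 by limma). PRKCA fell by 0.31 under shARID1A.2, by 0.33 under shARID1B.3 and by 0.59 under shARID1A/B.2.3, and the fall was larger under shARID1B.2 (-0.72, adjusted p = 7.5e-18 by limma). Under shARID1A/B.4.2 it had 6675.18, 6788.54 and 6724.7, a difference of -0.04 (-0.10 to 0.01) that was not called (adjusted p = 0.12 by limma). Scaled to total reads instead of size factors, that difference was 0.14 and was called as a rise (adjusted p = 4e-05 by limma).

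PRKCB (PKC beta, chr16:23835946-24220611) was at the low end of detection, with 25.84, 33.58 and 19.51 in Control. It fell to 9.14, 8.24 and 6.68 under shARID1A.2 (log2 change -1.58 ± 0.33 SE, adjusted p = 0.00015 by limma). The label shARID1A/B.4.2 had 11.84, 5.41 and 3.75 (-1.87 ± 0.33, adjusted p = 2.2e-05 by limma). Both conditions lay below all Control libraries, and in the other 4 conditions the range overlapped Control. There the differences were between -0.60 and 0.14 with a 95% half-width of about 0.69 (for shARID1A.4, -0.87 to 0.51), so changes of that size were not resolved at this depth.

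Of the calcium-independent members, PRKCD (PKC delta, linked to apoptosis, chr3:53156009-53192717) had 106.88, 91.78 and 88.33 in Control. Its values were 32.41, 33.99 and 22.27 under shARID1A.2 (log2 change -1.68 ± 0.20 SE, adjusted p = 4e-08 by limma) and 39.17, 34.76 and 39.34 under shARID1A/B.4.2 (-1.32, adjusted p = 2.3e-06 by limma). It was also below all Control libraries under the label shARID1B, at -1.03 and -1.30. Under shARID1A/B.2.3 it had 117.46, 80.23 and 92.43, which overlapped Control (0.00, -0.41 to 0.41). The fall of 0.47 under shARID1A.4 (adjusted p = 0.037 by limma) was not called without Control replicate 1 or 2 or without shARID1A.4 replicate 1 or 3 (-0.39, -0.50, -0.48 and -0.30).

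PRKCE (PKC epsilon, known for a part in neurite outgrowth, chr2:45651345-46187990) had 2013.16, 1915.05 and 1866.16 in Control. It was higher in all libraries labelled shARID1A/B.2.3, with 2380.5, 2415.37 and 2444.09 (log2 change 0.32 ± 0.03 SE, adjusted p = 1e-08 by limma). In those labelled shARID1A/B.4.2 it was lower, with 819.82, 768.62 and 786.73 (-1.29 ± 0.03, adjusted p = 1.7e-20 by limma). The label shARID1B split in the same way, with 2092.89, 2137.04 and 2077.24 under shARID1B.2 (0.12, adjusted p = 0.0033 by limma) and 847.18, 816.18 and 794.4 under shARID1B.3 (-1.24, adjusted p = 8.8e-20 by limma). Under the label shARID1A PRKCE fell in both conditions, by 0.88 and by 0.43. The direction of PRKCE therefore followed neither the label nor which of ARID1A and ARID1B was low.

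PRKCQ (PKC theta, best known from T cells, chr10:6427143-6580301) was near the floor. Its values were 1.17, 6.72 and 6.16 in Control and 10.8, 17.51 and 17.82 under shARID1A.2, and it passed the filter on low values only through that condition, so it carries no test. In every other condition its range overlapped Control. The gene PRKCQ-AS1, which starts beside it on the opposite strand, had a mean of 46.4 ± 14.9 (SD, n = 3) in Control. Its mean was 164 ± 10.3 under shARID1A.4 and 128 ± 7.42 under shARID1A/B.2.3. It was 91.1 and 90.5 under shARID1B.2 and shARID1B.3, and 41.4 and 36.4 under shARID1A.2 and shARID1A/B.4.2.

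Of the atypical members, PRKCI (PKC iota, a partner of the PAR polarity proteins, chr3:170222365-170305981) had 2273.91, 2290 and 2210.22 in Control. It had 772.51, 776.27 and 709.78 under shARID1B.3, a 3.00-fold lower mean (log2 change -1.58 ± 0.04 SE, adjusted p = 1e-19 by limma). In those labelled shARID1A.4 it had 1028.42, 962.03 and 999.96 (-1.18 ± 0.04, adjusted p = 1.3e-17 by limma). Smaller falls were found under shARID1A.2, shARID1B.2 and shARID1A/B.4.2 (-0.33, -0.22 and -0.77). The label shARID1A/B.2.3 overlapped Control (-0.07, -0.17 to 0.02, adjusted p = 0.14 by limma).

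PRKCZ (PKC zeta, the other atypical isoform, chr1:2050470-2185395) was above Control in 5 of 6 conditions. It had 205.54, 213.78 and 181.79 in Control and 628.79, 572.06 and 684.97 under shARID1A/B.2.3, a 3.14-fold higher mean (log2 change 1.64 ± 0.08 SE, adjusted p = 8.6e-16 by limma). Its values were 428.78, 441.87 and 469.95 under shARID1A.2 and 476.82, 482.8 and 488 under shARID1A.4 (1.16 and 1.27, adjusted p = 7.5e-13 and 1.2e-13 by limma). Every library of these 3 conditions, and of shARID1B.2 and shARID1A/B.4.2, lay above all Control libraries.

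PRKCZ also rose under shARID1A/B.4.2 and shARID1B.2 (0.67 and 0.57), and fell under shARID1B.3, with 148.33, 130.17 and 141.61 (-0.51, adjusted p = 2.3e-06 by limma). PRKCZ-AS1, which overlaps PRKCZ on the opposite strand, had means of 5.03 to 23.8 in the 7 conditions. Since the strand setting of the counting was not given in the sources used here, reads of the 2 genes cannot be told apart with certainty.

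**Figure D4:**
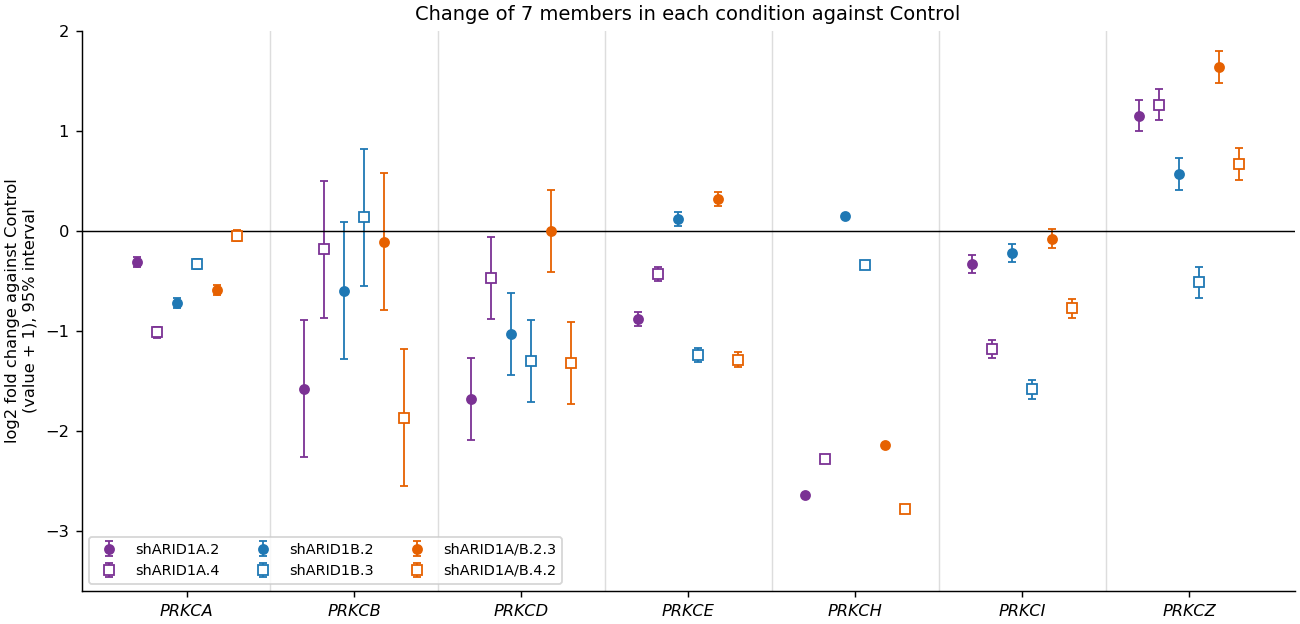
Log2 difference from Control (value + 1) of 7 members in the 6 silenced conditions, by label colour, with filled circles and open squares for the 2 conditions of a label and 95% intervals from limma; PRKCH, which selected the family, is drawn without intervals. PRKCH lies between -2.78 and -2.14 under the labels shARID1A and shARID1A/B, while the points of PRKCE and PRKCI are spread within each label.

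Direct comparison of the labels asked whether the other members also separated the libraries with low ARID1B from those with low ARID1A alone. The mean of the 2 conditions labelled shARID1A/B minus that of the 2 labelled shARID1B was called for 6 of 6 members (70.2% of all genes): 0.21 for PRKCA, -0.76 for PRKCB, 0.51 for PRKCD, 0.07 for PRKCE, 0.48 for PRKCI and 1.13 for PRKCZ. The same difference was -2.37 for PRKCH. For ARID1A it was 1.35 and for ARID1B -1.31, so these 2 labels differ in both transcripts. When the 2 conditions of a label were pooled as 1 group of 6 libraries, so that the spread between them entered the error, only PRKCZ of the 6 was called, and the calls over all genes fell from 13039 to 5177. The 6 libraries were still counted as independent though they come from 2 conditions, so this error can remain too small. PRKCZ did not separate all conditions of the 2 labels. Its libraries under shARID1A/B.4.2 (318.82 to 320.31) lay within the range of shARID1B.2 (272.05 to 323.68). Libraries under the label shARID1A minus those under shARID1A/B gave 4 calls (59.2% of all genes), between -0.17 and -0.42. After such pooling limma called 0 members, 1 at an unadjusted p under 0.05, beside 1731 of all 18584 genes called. Without pooling edgeR and DESeq2 each called 4 members, beside 11022 and 10208 of all genes. Nothing is read from these counts of members.

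The 2 conditions of a label differed for most members. Between shARID1A.2 and shARID1A.4, 5 of 6 members were called (75.8% of all genes). Between shARID1B.2 and shARID1B.3, 4 were called (66%), and between shARID1A/B.2.3 and shARID1A/B.4.2, 6 were (74.9%). The widest differences were those of PRKCB and PRKCE within the label shARID1A/B, 1.76 and 1.61 log2 units. For PRKCE the difference within a label was thus larger than any of its differences from Control. The ranges of condition means of the 6 members were 1.01 (PRKCA) to 2.16 (PRKCZ), with a median of 1.17 over all genes tested.

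The genes that supply, remove or answer the signal of PKC were described with 7 lists of 72 genes, of which 69 passed the filter on low values. In the 6 conditions, 17, 32, 19, 20, 31 and 25 of these rose and 36, 24, 26, 31, 23 and 33 fell, where the shares of all genes were 31.6% to 37.9% and 32% to 38.2%. The modulated genes numbered 12, 12, 3, 7, 10 and 8 of these 69. Of all genes, 24.8%, 21.4%, 12%, 11.8%, 16.1% and 18.4% were modulated. The median change of the listed genes was -0.26, 0.09, -0.00, -0.08, 0.06 and -0.12. Nothing is read from the counts in these lists. Among the 12 phospholipase C genes, 4, 7, 4, 2, 8 and 7 rose and 6, 3, 5, 6, 2 and 4 fell in the 6 conditions, beside the same shares of all genes (31.6% to 37.9% and 32% to 38.2%). Under shARID1A/B.2.3, PLCD3 had a mean of 685 against 178 in Control (log2 change 1.93), and PLCD4 of 1713 against 604. PLCH2 moved the other way under shARID1B.3 (-2.06).

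Among the enzymes and receptors that share diacylglycerol with PKC, the kinase DGKK rose by 2.11 under shARID1B.3, from a mean of 93.5 to 406. UNC13A, a vesicle priming factor with a C1 domain, rose by 1.80 under shARID1A.4, from 1950 to 6777, and UNC13C fell by 2.20 under shARID1A.2. The Ras exchange factor RASGRP3 rose by 1.71 under shARID1A.2. AKAP12, a scaffold that binds PKC, had 11623 in Control and 2112 under shARID1A.2 (-2.46), and its condition means were lower than in Control in all 6 conditions.

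Among the substrates, GAP43, a growth cone protein, was 3117 in Control and 602 under shARID1B.2 (-2.37), but 4352 under shARID1A/B.4.2. MARCKS, a major membrane substrate, had means of 10229 and 10371 under shARID1A.4 and shARID1A/B.2.3 and 15216 to 15766 in the 5 other conditions. Of the partners of the atypical members, the polarity gene PARD3B rose by 1.28 under shARID1A.2 and LLGL2 fell by 1.47 under shARID1B.3. Of the related kinases, PRKD1 fell by 1.48 under shARID1A/B.2.3 at values of at most 14.88.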

How the data were processed

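RNA-Seq of 21 libraries of SK-N-BE(2) cells (TruSeq stranded, polyadenylated RNA) was analysed in 7 conditions taken from the labels. Per gene and library the authors deposited 1 signal value, the reads on the gene divided by a library's size factor. Per the submitters' processing notes, STAR 2.5.3a, RSEM 1.3.0, DESeq2 1.26.0 and GRCh38 were used. The annotation release and the strand setting are not given in the sources used here. The 3 deposited comparison tables hold the authors' fold changes and p-values and were not used.

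Size factors of 0.841 to 1.29 gave whole reads for 100% of values within 0.1 read (largest deviation 0.0066), and 27954334 to 41077638 reads per library. Low genes are therefore limited by counting error. Of 60728 identifiers, 58496 matched GENCODE release 29 without the version, 40369 with it.

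Genes were kept by edgeR's filterByExpr on recovered reads over the 7 conditions (18584 genes). The main test was limma with a trend on log2 (value + 1), with all libraries sharing 1 estimate of the spread and Benjamini-Hochberg adjustment over all genes kept. Fold changes on this scale understate the change of low genes. Members and lists were chosen with earlier results of these data known. The design named 7 members besides PRKCH for the counts, but PRKCQ, which passed the filter through 1 condition, was left out of them after its values were seen, which leaves 6. Genes named are the members, ARID1A and ARID1B, up to 4 modulated genes per PKC list, the genes within 500000 bases of PRKCH, and the 10 genes most like PRKCH at a mean of at least 50. MARCKS, the antisense genes and the single genes of the marker lists were added after their values were seen. Promoter windows are from RefSeq (GRCh38.p14) and were found for 8 of 8 members.

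Alternatives were pseudocounts of 0.5 and 5, total reads, upper quartile and TMM scaling, no filter (35892 genes), at least 10 reads in every library (14637 genes), the replicate block, only the conditions compared, 4 label groups, edgeR's quasi-likelihood test, DESeq2's Wald test, and each library left out in turn. The tests were tried on simulated data. R 4.3.3 with limma 3.58.1, edgeR 4.0.16 and DESeq2 1.42.0, Python 3.11.15, pandas 2.3.3 and numpy 2.4.6 were used, and figures were drawn with matplotlib 3.10.9.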

Additional observations from a re-analysis of the deposited data

Results flagged for a closer look

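The 2 conditions of a label differed beyond the spread of their libraries by limma's test of the difference itself (adjusted p under 0.05) for 17 of 21 pairs of member and label (7 members with PRKCH, 3 labels), where 75.8% (shARID1A), 66% (shARID1B) and 74.9% (shARID1A/B) of all genes were called. Between the libraries labelled shARID1A.2 and shARID1A.4 the log2 difference was 0.70 for PRKCA, -1.39 for PRKCB, -1.21 for PRKCD, -0.45 for PRKCE and 0.85 for PRKCI. Between those labelled shARID1A/B.2.3 and shARID1A/B.4.2 it was -0.55 for PRKCA, 1.76 for PRKCB, 1.32 for PRKCD, 1.61 for PRKCE, 0.64 for PRKCH, 0.70 for PRKCI and 0.97 for PRKCZ. Between those labelled shARID1B.2 and shARID1B.3 it was -0.39 for PRKCA, 1.36 for PRKCE, 0.48 for PRKCH, 1.36 for PRKCI and 1.09 for PRKCZ. The 2 conditions with higher PRKCE and PRKCI in these last 2 pairs, shARID1A/B.2.3 and shARID1B.2, also had the higher PRKCZ of their pair. The calls of PRKCH counted here rest on the libraries whose values selected the family.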

How the results depend on the processing

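Pooling the 2 conditions of a label as 1 group left 1 member called between the labels shARID1A/B and shARID1B and 0 between shARID1A and shARID1A/B, with 5177 in place of 13039 and 1731 in place of 11000 calls over all genes. By construction the spread between the 2 conditions then enters the error. The 6 libraries of a label are still counted as independent, so this error can remain too small. The number of modulated members under shARID1B.2 was 0 with a pseudocount of 5 and 0 with scaling to total reads, and 0 to 1 with libraries left out (0 without Control replicate 1 or shARID1B.2 replicate 3). The modulated genes of the PKC lists under shARID1A/B.4.2 numbered 5 where at least 10 reads were required in every library, which tests fewer genes. PRKCA under shARID1A/B.4.2, a fall that was not called, became a called rise of 0.14 with scaling to total reads (adjusted p = 4e-05 by limma). Other differences that had not passed the threshold changed sign without a call: PRKCD under shARID1A/B.2.3 was -0.016 with TMM, and PRKCZ between shARID1A.2 and shARID1A.4 was 0.038 with scaling to total reads. With libraries left out, PRKCD under shARID1A/B.2.3 ranged from -0.15 to 0.13, PRKCB from -0.38 to 0.12 under shARID1A.4, from -0.052 to 0.32 under shARID1B.3, from -0.30 to 0.081 under shARID1A/B.2.3 and from -0.046 to 0.31 between shARID1A and shARID1A/B. Calls were also lost for PRKCI under shARID1B.2 with scaling to total reads (-0.08), for PRKCD under shARID1A.4 with no filter (adjusted p = 0.073 by limma) and with upper quartile scaling (0.082), and for PRKCD between shARID1A and shARID1A/B without shARID1A.2 replicate 3 (adjusted p = 0.050 by limma). The PRKCH difference between shARID1B.2 and shARID1B.3 was not called with no filter (adjusted p = 0.084 by limma) or upper quartile scaling (0.076), that between shARID1A/B.2.3 and shARID1A/B.4.2 was not called with only those conditions fitted (0.050), and PRKCE between shARID1A/B and shARID1B was not called with TMM (0.073). PRKCB between shARID1B.2 and shARID1B.3 was called under 4 of the alternatives that kept all libraries, edgeR's test among them (adjusted p = 0.031). The cause was not tested. Counting PRKCQ with the members, an alternative chosen after seeing the data, tests nothing, since the filter passed it only through the condition in which it was high.

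Replicate numbers did not pair the libraries, since the correlation of deviations between libraries of the same number ran from -0.088 to 0.053. With the replicate block the members called against Control were 6, 5, 5, 5, 3 and 5 of 6 in the 6 silenced conditions, as without it, and the block changed no other count of members. Depth limits PRKCB, PRKCD, PRKCH and PRKCQ, which had at most 38, 116, 226 and 17 reads in a library.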
